A study of Mus musculus with 48 samples.

Results

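The 14-3-3 adaptor genes were taken as every gene of the nCounter Glial panel whose symbol begins with Ywha, which gave 5 of 757 genes: Ywhae (14-3-3 epsilon), Ywhag (gamma), Ywhah (eta), Ywhaq (tau, also called theta) and Ywhaz (zeta). The mouse annotation holds 6 protein-coding Ywha genes. The other, Ywhab (14-3-3 beta), was not among the rows analysed here. RNA from mouse cortex was measured in 24 mice aged 7.5 months, 6 in each of 4 groups. Every mouse carried the 5xFAD transgenes, human genes with familial Alzheimer disease mutations that are driven in neurons by Thy1 promoter sequence and cause early amyloid plaques. The groups were 5xFAD females, 5xFAD males, and females and males that were 5xFAD Plcg2 KO+/-, heterozygous for a knockout of phospholipase C gamma 2, a signalling enzyme found mainly in microglia in the brain, and called Plcg2+/- here. No group without the transgenes was analysed here, so the values describe a difference within amyloid-bearing cortex. Animal numbers of the genotypes come from separate ranges, 1177 to 1270 for 5xFAD and 3 to 51 for Plcg2+/-, so a cohort effect and the genotype effect cannot be told apart.

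14-3-3 proteins are small acidic proteins that form dimers and grip partner proteins at phosphorylated serine or threonine. By holding a partner they change where it sits, what it binds or whether it is active, and kinases such as AKT and protein kinase A write many of the sites they read. They are among the most abundant soluble proteins of neurons, and their presence in cerebrospinal fluid is used as a sign of rapid neuronal damage in human patients. Ywhaz is also widely used as a reference gene in expression assays.

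The genes lie on 4 chromosomes of GRCm38.p6 in RefSeq. Ywhah spans chr5:33018816-33027966, Ywhag chr5:135908379-135934641, Ywhae chr11:75732887-75765841, Ywhaq chr12:21390329-21417436 and Ywhaz chr15:36770261-36802984. The probe of each gene reads 1 stretch of its transcript, whose position was not given in the sources used here. The annotation names 3 pseudogenes of Ywhaq, and whether the probe also reads them was not tested.

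The promoters of 4 of the 5 genes were in the RefSeq promoter table, each as 300 bases from 250 before to 50 after the gene's start. The 3 shown are those of Ywhag, which was higher in Plcg2+/- mice, of Ywhah, which was lower, and of Ywhaq, which was lower in females. Capitals mark CGTCA or its reverse complement TGACG, the short form of the cAMP response element. The stretches are chr5:135934592-135934891 on the minus strand for Ywhag, chr5:33018566-33018865 on the plus strand for Ywhah and chr12:21417387-21417686 on the minus strand for Ywhaq.
Ywhag: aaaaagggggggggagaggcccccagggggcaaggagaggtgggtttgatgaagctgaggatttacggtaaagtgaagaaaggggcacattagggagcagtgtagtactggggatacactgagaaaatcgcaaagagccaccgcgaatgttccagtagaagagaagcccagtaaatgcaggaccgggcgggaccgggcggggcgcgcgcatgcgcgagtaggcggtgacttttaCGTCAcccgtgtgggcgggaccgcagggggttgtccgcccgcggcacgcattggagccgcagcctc
Ywhah: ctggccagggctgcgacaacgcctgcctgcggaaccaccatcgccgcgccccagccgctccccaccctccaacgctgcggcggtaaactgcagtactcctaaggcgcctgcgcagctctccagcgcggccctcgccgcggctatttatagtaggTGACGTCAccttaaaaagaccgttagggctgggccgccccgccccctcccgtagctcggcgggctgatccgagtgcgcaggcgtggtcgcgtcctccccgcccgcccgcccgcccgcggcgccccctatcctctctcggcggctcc
Ywhaq: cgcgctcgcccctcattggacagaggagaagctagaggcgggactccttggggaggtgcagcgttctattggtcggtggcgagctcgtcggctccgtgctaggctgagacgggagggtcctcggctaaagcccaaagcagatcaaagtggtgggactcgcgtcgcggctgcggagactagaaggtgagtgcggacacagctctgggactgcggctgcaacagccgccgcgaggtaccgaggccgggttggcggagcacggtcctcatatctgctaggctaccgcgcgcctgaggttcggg
In Ywhah the capitals make the full palindrome TGACGTCA, which starts 96 bases before the gene's start. In Ywhag only CGTCA is present, 16 bases before the start. On both strands, TGACGTCA was found in 1.79% of all 32851 promoters and CGTCA, which lies inside it, in 20.8%. The windows of Ywhae and Ywhaq held neither. GGGCGG, the SP1 box, was found in Ywhae, Ywhag and Ywhah and in 35.7% of all promoters. GTGGGCG, the core that EGR factors bind, was found in Ywhag alone of the 4 windows, overlapping a GGGCGG, and in 7.97% of all promoters. CCAAT was found in Ywhag and Ywhaq and in 37.4% of all promoters, and GCCGCCATN, the core that YY1 binds, in Ywhae and in 2.24%. The windows held from 61.3% to 71.7% G and C, against a median of 52.7% over all promoters. These matches are letters in a window and no measure of binding.

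All 5 transcripts were counted often. Recovered counts ran from 6107 to 18030 per gene and mouse, so the counting error of a value was at most 1.28%. Total counts per mouse over the 757 genes were 953461 to 1239109 for the 5xFAD females, below the 1773331 to 1897264 of every Plcg2+/- female, and from 1428825 to 1775622 and from 1360757 to 1814975 in the corresponding males, with overlap. Genotype and depth therefore cannot be told apart in females. Plcg2 and the genes that tell the sexes apart were not among the rows analysed here, so the labels could not be checked by expression. Neuron markers were present in every mouse: all 16 measured, among them Slc17a7 of excitatory and Gad1 of inhibitory neurons, stood above 20 normalized counts in each of the 24 mice. These are markers of neurons in general, so they do not check that the tissue was cortex. Plcg2+/- female 12 and Plcg2+/- male 3 were set apart in earlier results of these data. For the Ywha genes and their ratios over both sexes, results whose call changes without them are given both ways. Without both mice, 407 genes of the panel were called in males in place of 308, and 231 interactions in place of 166. The gene lists, the ratios by sex, the fit of all gene pairs and the Neuropathology panel were not refitted without them.

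In Plcg2+/- cortex the members of the family differed in both directions. Ywhag rose, Ywhae, Ywhah and Ywhaq fell, and Ywhaz did not pass the test, in values averaged over the sexes. The size was small: the differences ran from -0.14 to 0.18 on the log2 scale, or from 0.905-fold to 1.13-fold. Each difference is the Plcg2+/- level less the 5xFAD level in log2 units, given with its standard error (SE), and adjusted p-values are from limma over all 757 genes, called under 0.05. In this comparison 4 of the 5 genes were called, 1 higher and 3 lower, where 60.5% of all genes were called, 33.8% higher and 26.7% lower. The share of the family is thus near that of the panel, and the median size of a difference over all genes was 0.19. The 4 calls kept their direction and passed with each mouse centred on its median and after quantile normalization, while with voom on recovered counts those of Ywhae and Ywhah did not pass (-0.045 and -0.054, adjusted p = 0.111 and 0.0563 from limma) and Ywhaz did (0.056, adjusted p = 0.0326 from limma). With the log2 total count as a covariate 116 genes were called in place of 458. Ywhag (0.079, adjusted p = 0.551 from limma) and Ywhae (-0.080, adjusted p = 0.316 from limma) then did not pass, and Ywhaz turned to -0.11 (adjusted p = 0.195 from limma). In bulk tissue, fewer cells of a type and less RNA per cell cannot be told apart.

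**Figure D1:**
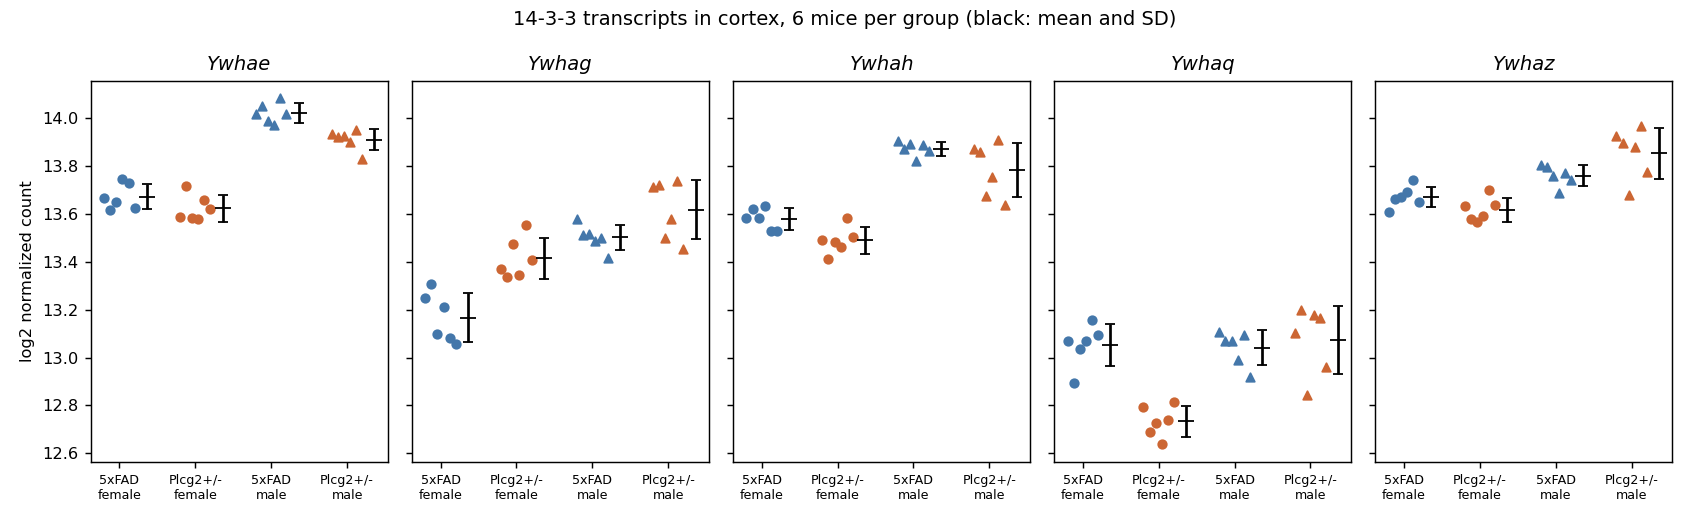
Log2 normalized counts of the 5 transcripts in each mouse, with circles for females, triangles for males, blue for 5xFAD and orange for Plcg2+/-, and the mean and SD of 6 mice in black. Ywhag lies higher and Ywhaq lower in every Plcg2+/- female than in any 5xFAD female, and Ywhae lies lower in every Plcg2+/- male than in any 5xFAD male.

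Ywhag encodes 14-3-3 gamma, an isoform enriched in neurons whose variants cause an early epileptic encephalopathy in humans. In females its log2 value was 13.06 at the lowest, 13.15 at the median and 13.31 at the highest in 5xFAD mice, and 13.34, 13.39 and 13.55 in Plcg2+/- mice. In males the corresponding values were 13.42, 13.50 and 13.58 in 5xFAD mice and 13.46, 13.65 and 13.74 in Plcg2+/- mice. All 6 Plcg2+/- females were above every 5xFAD female, while in males 4 of 6 were above every 5xFAD male and the other two, mice 3 and 48, lay within the 5xFAD range. Over both sexes Ywhag rose by 0.18 ± 0.041 (SE, n = 12 per genotype; adjusted p = 0.00063 from limma), with 10 of 12 Plcg2+/- mice above the 5xFAD mean of their sex. It rose by 0.25 ± 0.058 in females (adjusted p = 0.00098 from limma) and differed by 0.12 ± 0.058 in males (adjusted p = 0.107 from limma), where it passed without male 3 (0.14, adjusted p = 0.0485 from limma) or without male 48 (0.15, adjusted p = 0.0434 from limma). The sexes were not shown to differ (interaction 0.13 ± 0.081, adjusted p = 0.266 from limma). With the log2 total count as a covariate the difference over both sexes was 0.079 (adjusted p = 0.551 from limma).

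Ywhaq encodes 14-3-3 tau, known from T cells and widely present in brain. In females its log2 value was 12.89 at the lowest, 13.07 at the median and 13.16 at the highest in 5xFAD mice, and 12.64, 12.73 and 12.81 in Plcg2+/- mice. In males it was 12.92, 13.07 and 13.11 in 5xFAD mice and 12.84, 13.13 and 13.20 in Plcg2+/- mice. The female genotypes did not overlap, and the males did, with 3 Plcg2+/- males above and mouse 3 below every 5xFAD male. Ywhaq fell by 0.32 ± 0.059 in females (0.801-fold; adjusted p = 9.86e-05 from limma, n = 6 per genotype), and in males the difference was 0.034 ± 0.059 with a 95% interval from -0.088 to 0.16 (adjusted p = 0.670 from limma). The difference between the sexes was itself called: the female difference was lower than the male one by 0.35 ± 0.083 (interaction -0.35, adjusted p = 0.0039 from limma). Ywhaq was the only 1 of the 5 genes with a called interaction, where 21.9% of all genes had one, 15.2% above 0 and 6.74% below. The average over the sexes fell by 0.14 ± 0.042 (adjusted p = 0.00526 from limma), with 8 of 12 Plcg2+/- mice below the 5xFAD mean of their sex, and it joins a fall in females to values in males that overlapped. With the log2 total count as a covariate the female difference was -0.70 (adjusted p = 0.0040 from limma) and that over both sexes -0.33 (adjusted p = 0.00412 from limma).

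Ywhae encodes 14-3-3 epsilon, which protects the phosphorylated form of the dynein regulator NDEL1 and is needed for neurons to migrate in the developing mouse cortex. Its log2 value in females was 13.62 at the lowest, 13.66 at the median and 13.74 at the highest in 5xFAD mice, and 13.58, 13.60 and 13.72 in Plcg2+/- mice. In males it was 13.97, 14.02 and 14.08 in 5xFAD mice and 13.83, 13.93 and 13.95 in Plcg2+/- mice. Females overlapped, with Plcg2+/- female 12 the highest of its group, and the male genotypes did not overlap. Ywhae fell by 0.080 ± 0.026 over both sexes (adjusted p = 0.0127 from limma; 11 of 12 mice below the 5xFAD mean of their sex) and by 0.11 ± 0.037 in males (adjusted p = 0.0239 from limma), while the female difference was -0.049 ± 0.037 (adjusted p = 0.271 from limma). With each mouse centred on its median it was the female difference that passed (-0.11, adjusted p = 0.0183 from limma) and the male one that did not (-0.074, adjusted p = 0.115 from limma). The interaction was 0.061 ± 0.053 (adjusted p = 0.434 from limma). Its male call ended without 5xFAD male 1181, 5xFAD male 1269 or Plcg2+/- male 48 (adjusted p = 0.0509, 0.0570 and 0.0530 from limma).

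Ywhah encodes 14-3-3 eta, an activator of tyrosine and tryptophan hydroxylase in vitro. In females its log2 value was 13.53 at the lowest, 13.58 at the median and 13.63 at the highest in 5xFAD mice, and 13.41, 13.49 and 13.59 in Plcg2+/- mice. In males it was 13.82, 13.88 and 13.91 in 5xFAD mice and 13.64, 13.81 and 13.91 in Plcg2+/- mice. The genotypes overlapped in both sexes, and 5 of 6 Plcg2+/- females were below every 5xFAD female. Ywhah fell by 0.090 ± 0.032 over both sexes (adjusted p = 0.0205 from limma; 10 of 12 mice below), with nearly equal differences of -0.090 ± 0.046 in females and -0.089 ± 0.046 in males, neither of which passed (adjusted p = 0.102 and 0.118 from limma). The near equality held on the deposited scaling: centred on the median the differences were -0.15 in females (adjusted p = 0.00439 from limma) and -0.053 in males (adjusted p = 0.311 from limma), and after quantile normalization -0.014 (adjusted p = 0.746 from limma) and -0.11 (adjusted p = 0.0192 from limma). With the log2 total count as a covariate the difference over both sexes was -0.19 (adjusted p = 0.0383 from limma). The 95% interval of the interaction ran from -0.13 to 0.13.

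Ywhaz encodes 14-3-3 zeta, a partner of the microtubule protein tau and of RAF kinases. In females its log2 value was 13.61 at the lowest, 13.67 at the median and 13.74 at the highest in 5xFAD mice, and 13.57, 13.61 and 13.70 in Plcg2+/- mice. In males it was 13.69, 13.77 and 13.81 in 5xFAD mice and 13.68, 13.89 and 13.97 in Plcg2+/- mice. The genotypes overlapped in both sexes. The difference over both sexes was 0.021 ± 0.032 with a 95% interval from -0.045 to 0.086 (adjusted p = 0.594 from limma). It was -0.053 ± 0.045 in females and 0.094 ± 0.045 in males (adjusted p = 0.322 and 0.0910 from limma), and the interaction was -0.15 ± 0.063 (adjusted p = 0.0963 from limma). The male difference and the interaction both passed without Plcg2+/- male 3, the lowest of its group, at 0.13 (adjusted p = 0.00887 from limma) and -0.18 (adjusted p = 0.0138 from limma). With each mouse centred on its median they passed as well, at 0.13 (adjusted p = 0.0168 from limma) and -0.245 (adjusted p = 0.00435 from limma).

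**Figure D2:**
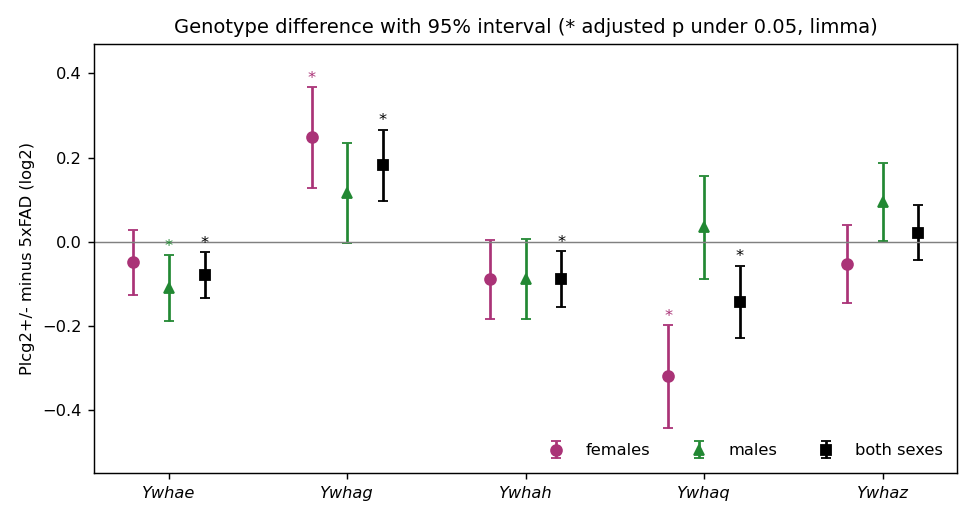
Plcg2+/- minus 5xFAD on the log2 scale for each gene in females (circles), males (triangles) and both sexes (squares), with 95% intervals of the limma fit and an asterisk where the adjusted p was under 0.05. The Ywhaq difference is -0.32 in females and 0.034 in males, while the Ywhah differences of the sexes are nearly equal on this, the deposited, scaling.

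Taken by sex, 2 of the 5 genes were called in females, Ywhag higher and Ywhaq lower, where 54.8% of all genes were called, 34.5% higher and 20.3% lower. In males 1 was called, Ywhae lower, where 40.7% of all genes were, 17.2% higher and 23.5% lower. The genotypes did not overlap for the same 2 genes in females, where 26.6% of all genes did not overlap, and for Ywhae in males, where 9.11% did not. An exact permutation of mice within sex, two-sided over 853776 splits, gave p = 0.000262 for Ywhag, 0.00106 for Ywhae, 0.00317 for Ywhah, 0.0176 for Ywhaq and 0.509 for Ywhaz.

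Ratios of 2 members within a mouse do not change when all values of that mouse are multiplied by 1 factor, so they show which transcripts moved apart on the deposited values. Quantile normalization and a depth covariate can change them, and the ratios were run under neither. Of the 10 pairs, 7 differed by genotype over both sexes in the exact permutation of mice within sex, with p-values adjusted over the 10 pairs. A limma fit of the log2 ratios of all 286146 gene pairs of the panel, adjusted over all of them, called the same number, 7 of 10 member pairs, where 59.6% of all pairs were called, so the count for the family is near that of the panel. By sex this fit called 7 member pairs in females and 4 in males, where 52.8% and 39.2% of all pairs were called. The median size of the difference was 0.136 over the member pairs and 0.29 over all pairs. The pair of smallest p was Ywhag over Ywhah. Its log2 ratio was -0.41 ± 0.072 (SD, n = 6) in 5xFAD females, from -0.48 to -0.32, and -0.075 ± 0.046 (SD, n = 6) in Plcg2+/- females, from -0.12 to -0.0084. In males it was -0.37 ± 0.043 (SD, n = 6), from -0.44 to -0.33, and -0.17 ± 0.015 (SD, n = 6), from -0.18 to -0.14. The genotypes overlapped in neither sex, as in 4.32% of all gene pairs, and all 12 Plcg2+/- mice were above the 5xFAD mean of their sex. The ratio was 1.21-fold higher in Plcg2+/- mice (0.27 on the log2 scale; exact permutation p = 2.34e-06, the smallest these splits can give, adjusted p = 2.34e-05). It differed by 0.34 in females and by 0.21 in males (exact adjusted p = 0.00541 in each, over 20 tests).

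The other pairs that included Ywhag also differed. Ywhae over Ywhag fell by 0.26 (exact adjusted p = 7.03e-05; lower in 12 of 12 mice), by 0.30 in females and by 0.23 in males. Ywhag over Ywhaq rose by 0.33 (exact adjusted p = 0.000242; 11 of 12 mice), by 0.57 in females (exact adjusted p = 0.00541), while the male difference was 0.082 (exact adjusted p = 0.0959). Ywhag over Ywhaz rose by 0.16 (exact adjusted p = 0.00159; 10 of 12 mice), with 0.30 in females and 0.022 in males. Over the 10 member pairs the genotypes did not overlap in 5 in females and in 3 in males, where 24.3% and 9.01% of all gene pairs did not. The member pairs share genes, so these counts are not of independent pairs. Each of the female pairs without overlap held Ywhag or Ywhaq, the genes whose female genotypes did not overlap singly.

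Among the pairs without Ywhag, Ywhaq over Ywhaz fell by 0.16 (exact adjusted p = 0.00051), Ywhah over Ywhaz fell by 0.11 (exact adjusted p = 0.000689) and Ywhae over Ywhaz fell by 0.10 (exact adjusted p = 0.0129). The last 2 differed by -0.18 and -0.20 in males (exact adjusted p = 0.00541 and 0.013) and by -0.037 and 0.0039 in females (exact adjusted p = 0.314 and 0.922). Ywhae over Ywhah differed by 0.0099 (exact adjusted p = 0.747). Ywhae over Ywhaq rose by 0.27 in females (exact adjusted p = 0.00541) and differed by -0.14 in males (exact adjusted p = 0.0699), and Ywhah over Ywhaq rose by 0.23 in females (exact adjusted p = 0.0157) and fell by 0.12 in males (exact adjusted p = 0.0289, but adjusted p = 0.121 in the limma fit of all pairs), so neither passed over both sexes (exact adjusted p = 0.346 for each).

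**Figure D3:**
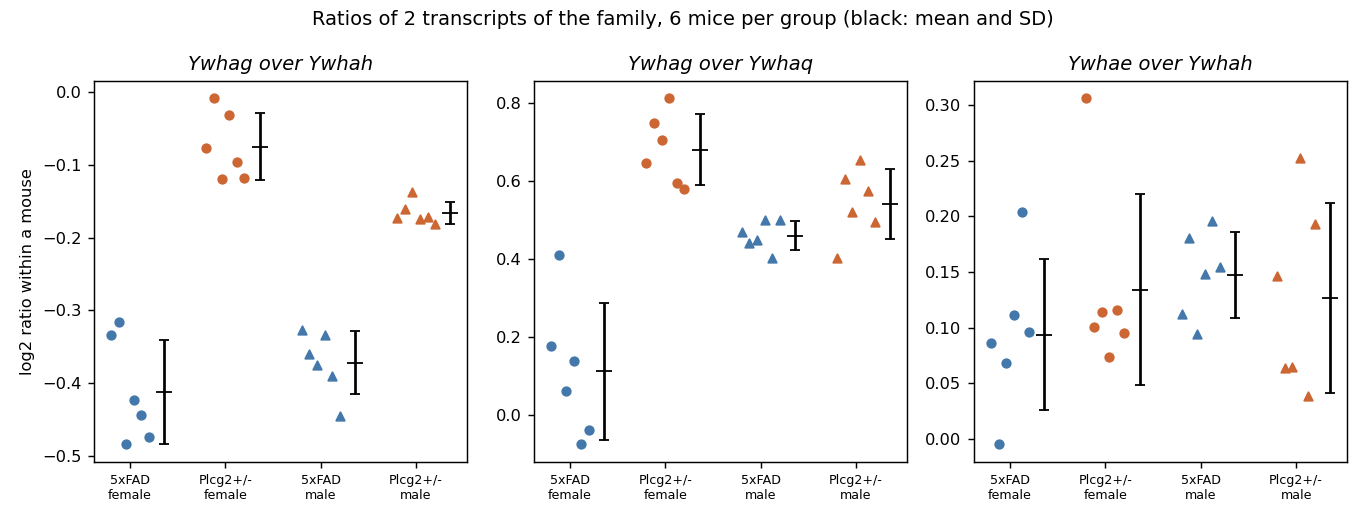
Log2 ratios of 2 transcripts within each mouse for 3 pairs chosen after their values were seen, with the mean and SD of 6 mice in black. Ywhag over Ywhah separates the genotypes in both sexes, Ywhag over Ywhaq separates them in females, and Ywhae over Ywhah overlaps in both.

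The sex difference of the family moved with the scaling. On the deposited values all 5 genes were lower in females than in males, with female minus male at -0.32 ± 0.026 for Ywhae, -0.29 ± 0.032 for Ywhah, -0.27 ± 0.041 for Ywhag, -0.16 ± 0.042 for Ywhaq and -0.16 ± 0.032 for Ywhaz, where 81.2% of all genes were called, 76.2% lower and 5.02% higher in females, and the median difference of all genes was -0.27. The largest adjusted p of the 5 was that of Ywhaq, 0.00116 from limma. With each mouse centred on its median, Ywhae and Ywhah kept a called lower level in females, by 0.099 (adjusted p = 0.00593 from limma) and 0.076 (adjusted p = 0.0459 from limma), Ywhag did not (-0.050, adjusted p = 0.287 from limma), and Ywhaq and Ywhaz turned to 0.054 and 0.056 (adjusted p = 0.322 and 0.137 from limma). After quantile normalization Ywhag turned as well (0.075, adjusted p = 0.0435 from limma) and Ywhah did not pass (-0.022, adjusted p = 0.515 from limma). In 5xFAD mice the order of the sexes was also unequal between genes: Ywhaq stood at 13.05 ± 0.088 in females and 13.04 ± 0.073 in males (SD, n = 6 each), with overlapping ranges, while Ywhae stood at 13.67 ± 0.054 and 14.02 ± 0.041 with no overlap. Total counts did not overlap between these groups either, at 953461 to 1239109 in 5xFAD females and 1428825 to 1775622 in 5xFAD males. Sex and depth therefore cannot be told apart in 5xFAD mice.

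**Figure D4:**
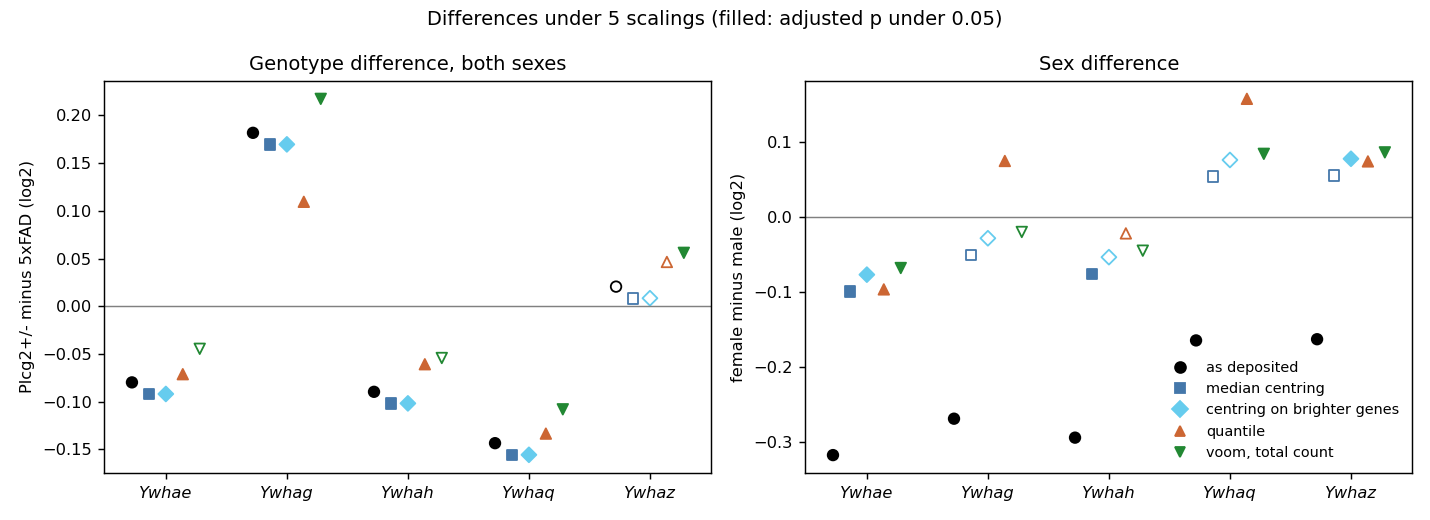
Genotype difference over both sexes (left) and sex difference (right) of each gene under 5 scalings of the same values, with filled symbols where the limma adjusted p was under 0.05. The genotype differences keep their side of 0 under these scalings, and the sex differences of Ywhaq and Ywhaz run from -0.16 as deposited to above 0 in the other 4.

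By group, Ywhae was lowest in Plcg2+/- females, then 5xFAD females, Plcg2+/- males and 5xFAD males, and only the female pair overlapped in range. Ywhag rose from 5xFAD females to Plcg2+/- females, 5xFAD males and Plcg2+/- males, with overlap between each pair of neighbours after the first. Ywhah ran in the same order as Ywhae, with overlap within each sex and none between the sexes. Ywhaq was low in Plcg2+/- females, and the other 3 groups overlapped. Ywhaz ran from Plcg2+/- females through 5xFAD females and 5xFAD males to Plcg2+/- males, and every neighbouring pair overlapped.

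Within groups the members varied together to different degrees. After each group mean was subtracted, Ywhag and Ywhah had a Pearson r of 0.87 over the 24 mice (0.85 over the 22 mice without female 12 and male 3), and their genotype differences nonetheless had opposite signs. Ywhah and Ywhaz had an r of 0.76 (0.71 without them), and Ywhaq and Ywhaz 0.74 (0.57 without them). Ywhae stood apart, with r from 0.18 to 0.38 with the other members, but from 0.37 to 0.76 without those 2 mice. All values of a mouse share 1 scaling, so these r are descriptions.

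The gene outside the family most like Ywhag in this measure was Syn2 (r = 0.92), which encodes the synaptic vesicle protein synapsin II, followed by Basp1 (0.89), a membrane protein of growing axons, and Rad23b (0.89), a carrier of ubiquitinated proteins. Ywhag rose while Syn2 differed by 0.054 ± 0.035 (adjusted p = 0.186 from limma). Ywhah was most like Rad23b (0.90), Gnas (0.89), the stimulatory G protein alpha subunit, and Atp6v1b2 (0.88), a proton pump subunit. Ywhaq was most like the genes of mitochondrial respiration Ndufa10 (0.87) and Atp5g3 (0.85), and Hacd3 (0.85), an enzyme of fatty acid elongation. Ywhaz was most like Xk (0.82), Atp1b1 (0.82), a sodium pump subunit, and Cnr1 (0.81), the cannabinoid receptor of nerve endings, which fell to an r of 0.66 and place 20 without female 12 and male 3. Ywhae was most like Nkiras1 (0.80), an inhibitor of NF-kB, Prkar1a (0.75), a regulatory subunit of protein kinase A, and Rab1a (0.74), a GTPase of vesicle transport. Among the lowest r were those of Rims1, a protein of the release site, with Ywhaq (-0.81, or -0.74 without those 2 mice) and Ywhaz (-0.70, or -0.50 without them), of Itga7 with Ywhae (-0.74) and of Pros1 with Ywhah (-0.71). The median r of a member with all other genes lay between 0.14 and 0.20, and the leading genes of Ywhag were the same 3 without female 12 and male 3.

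Partners and writers of 14-3-3 sites moved both ways. The counts that follow are of genes called over both sexes, to be read against the 33.8% of all Glial genes called higher and 26.7% called lower. Of 12 client genes measured on the Glial panel, 4 rose and 2 fell, with a median of 0.034 against 0.041 for all genes. Braf, the RAF kinase that 14-3-3 dimers hold inactive or active, rose by 0.35 ± 0.049 (adjusted p = 3.3e-06 from limma). Ulk1, the kinase that starts autophagy, rose by 0.33 ± 0.057 (adjusted p = 4.05e-05 from limma), by 0.66 in females and with a difference of 0.0078 in males. Th, tyrosine hydroxylase, rose by 0.68 ± 0.17 from a low level of 28.8 normalized counts, and Gsk3b, a tau kinase, fell by 0.21 ± 0.053. Mapt, encoding tau and chosen for naming after its values were seen, differed by -0.016 ± 0.044 (adjusted p = 0.763 from limma).

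Of 11 kinases that write such sites, 4 rose and 3 fell, beside 33.8% and 26.7% of all genes, with a median of 0.035. Prkacb, a catalytic subunit of protein kinase A, rose by 0.19 ± 0.041 and Camk2d by 0.13 ± 0.030, while Pak1, a kinase of the actin skeleton, fell by 0.21 ± 0.051. The Prkacb difference was 0.31 in females and 0.068 in males (male adjusted p = 0.353 from limma). Its interaction was called (adjusted p = 0.0367 from limma). Of 11 genes of the RAS to MAPK cascade 6 rose and 3 fell. Besides Braf, the phosphatase gene Ptpn11 rose by 0.27 ± 0.041 and the RAS activator gene Rasgrf1 by 0.38 ± 0.077. The Ptpn11 average joins a rise of 0.52 in females to a difference of 0.010 in males (male adjusted p = 0.899 from limma). Its interaction was called (adjusted p = 0.00018 from limma). Of 9 genes of the PI3K to AKT pathway 2 rose and 5 fell, with a median of -0.11: Tsc1 rose by 0.35 ± 0.044 and Mtor by 0.54 ± 0.085, and the phosphatase gene Inpp5f fell by 0.64 ± 0.15. Tsc1 rose by 0.50 in females and 0.21 in males, with a called interaction (adjusted p = 0.0238 from limma).

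Of 4 serine and threonine phosphatase genes, which can erase 14-3-3 sites, none rose and 3 fell, beside 33.8% of all genes higher and 26.7% lower: Ppp2ca, the catalytic subunit of PP2A, by 0.22 ± 0.042, Ppp3r1, the regulatory subunit of calcineurin, by 0.12 ± 0.034, and Ppm1a by 0.10 ± 0.031. Of 6 cell cycle regulators 2 fell, Ccnh, a cyclin, by 0.875 ± 0.11 and Cdk7, its partner kinase, by 0.20 ± 0.035, and none rose. The Cdk7 difference was -0.32 in females and -0.086 in males (male adjusted p = 0.158 from limma). Its interaction was called (adjusted p = 0.0185 from limma). Over both sexes, the largest adjusted p among the pathway genes named as rising or falling was 0.00748 from limma, that of Ppm1a.

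The Neuropathology panel, run on RNA of the same animal numbers, held no Ywha gene but further partners, and its fit called 71.6% of 760 genes, 35.5% higher and 36.1% lower. There 2 of 16 client genes rose and 8 fell, 3 of 17 kinases rose and 11 fell, and all 5 phosphatase genes fell. Total counts on this panel were 528033 to 651615 in 5xFAD females and 1220459 to 1603006 in Plcg2+/- females. Genotype and depth therefore cannot be told apart in females on this panel either. Bad, the cell death protein that 14-3-3 proteins hold in the cytosol, fell by 0.34 ± 0.057, Hdac7, a deacetylase they keep out of the nucleus, fell by 0.55 ± 0.064 and Crtc2, a CREB coactivator they hold, rose by 0.52 ± 0.085 (largest adjusted p = 3.02e-05 from limma). The panels shared 251 genes, and the share of them that matched was not counted. Some of the named genes read on both matched and others did not. Ccnh fell by 0.875 on the Glial and by 0.89 on the Neuropathology panel, Mtor rose by 0.54 and 0.52, and Inpp5f fell by 0.64 and 0.71. Pak1 fell by 0.21 on the Glial and by 0.20 on the Neuropathology panel, but Prkacb rose by 0.19 on the first and fell by 0.83 ± 0.14 on the second (adjusted p = 3.61e-05 from limma), and Map2k1 rose by 0.15 on the first and fell by 0.15 on the second (adjusted p = 0.0146 from limma). The Ywha genes have no such second reading here.

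Levels of cell type markers moved with the groups too. The summed normalized count of the 16 neuron markers on the Glial panel was 68559.5 to 81882 for the 5xFAD females, below the 85959 to 96045 of the Plcg2+/- females, and from 105243 to 110901 and from 103332 to 119875 in males, with overlap. On the Neuropathology panel the sum of its 16 neuron markers had a median of 37836 in 5xFAD females (36334 to 38186) and of 34685 in Plcg2+/- females (33652.5 to 42561), and of 57725 in 5xFAD males (54764 to 60368) and 45452 in Plcg2+/- males (43871 to 59596). There the Plcg2+/- medians were the lower ones in both sexes, with overlapping ranges. Of the Glial neuron markers 9 rose and 2 fell over both sexes, among them Syn1, a synaptic vesicle protein, which rose by 0.33 ± 0.058, and the AMPA receptor gene Gria1, which fell by 0.22 ± 0.046. On the Neuropathology panel 4 of 16 neuron markers rose and 10 fell, with a median of -0.22. More of the measured markers thus rose on the Glial panel and more fell on the Neuropathology panel. The list held 28 markers, of which each panel measured 16, and those read on both panels were not counted apart. Gad1, read on both, rose by 0.315 on the Glial and by 0.47 on the Neuropathology panel. Beside 33.8% of all Glial genes called higher and 26.7% lower, of 7 astrocyte markers 3 rose and 1 fell, of 16 microglia markers 3 rose and 6 fell, of 12 oligodendrocyte markers 3 rose and 3 fell, of 4 precursor markers 4 rose, and of 7 endothelial markers 1 rose and 3 fell. The part of cell makeup in the differences of the Ywha genes was not tested.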

How the data were processed

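Total RNA of mouse cortex was measured by nCounter hybridisation, without amplification, on the Glial panel and on the Neuropathology panel, 24 mice each. The authors deposited log2 normalized values, 1 per gene and mouse. Per the labels the standard NanoString protocol was used, and the normalization is not given in the sources used here. Each deposited log2 value equals the log2 of a whole count times 1 factor per mouse (tolerance 0.05 counts), and counts and totals were recovered from that. Groups came from the sample titles. The Neuropathology panel held 0 Ywha rows.

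All 757 Glial genes were fitted with a mean for each of the 4 groups in limma 3.58.1 (R 4.3.3), with p-values adjusted by Benjamini-Hochberg over all genes and called under 0.05. Ratios were tested by exact two-sided permutation of mice within sex (numpy 2.4.6). On data simulated for the genotype difference over 757 genes, 23.9% of changes of 0.1, 79.1% of 0.25 and 89.4% of 0.5 on the log2 scale were called. In that simulation 67, 67 and 66 genes were changed by these sizes, with independent normal noise and no difference in depth. The measured values had 458 genes called and depth split by genotype in females, so these rates need not hold for them. No 2 libraries of a group were duplicates: the chi-square over degrees of freedom of replicate pairs ran from 2.44 to 70.3 on the Glial panel. On the Neuropathology panel it ran from 1.79 to 168.75, the highest among Plcg2+/- males. Libraries of different groups were not compared. P-values set a difference between groups against the spread between these mice, and they do not cover a difference between cohorts.

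Members and gene lists were chosen with earlier results of these data known. Named genes were the Ywha genes, up to 4 called genes of smallest p in each list, and for each Ywha gene the 3 of highest and the 1 of lowest within-group r. A few genes that this rule names are not reported here. Alternatives were other scalings, a filter on genes under 20 normalized counts, eBayes settings, array weights, a model without sex, each sex alone, depth as a covariate and leaving out mice. Voom without TMM, centring on genes above that filter, the fit of the Neuropathology panel, permutation by sex and the fit of all gene pairs were chosen after seeing the data.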

Additional observations from a re-analysis of the deposited data

Results flagged for a closer look

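The genotype difference of Ywhaq differed between the sexes, with the female difference minus the male one at -0.35 (adjusted p = 0.0039 from limma): all 6 Plcg2+/- females were below every 5xFAD female, and 3 of 6 Plcg2+/- males were above every 5xFAD male.

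In 5 of 60 group checks of the values and ratios, 1 mouse stood further from its nearest neighbour than 0.625 of the group's range, Dixon's 95% limit for 6 samples. At that limit chance alone flags some groups, about 5% of them. Plcg2+/- female 12 had the highest log2 ratio of Ywhae over Ywhah in its group, 0.31 against 0.12 in the next mouse, and of Ywhae over Ywhaz, 0.14 against 0.015. Plcg2+/- male 3 had the highest log2 ratio of Ywhae over Ywhaz, 0.25 against 0.052. 5xFAD male 1270 had the highest log2 ratio of Ywhah over Ywhaq, 0.945 against 0.83, and the lowest of Ywhaq over Ywhaz, -0.83 against -0.73.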

How the results depend on the processing

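Of 1258 values under alternatives, 940 with 1 mouse left out and 227 under other settings kept direction and side of the threshold. The cause of the changes below was not tested. Adjusted p-values below are from limma. No paired analysis was possible because no animal number occurs in both genotypes. The planned edgeR fit and voom with TMM were not run. In females depth is split by genotype.

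Over both sexes, without a sex term the differences of Ywhae, Ywhah and Ywhaq were -0.080, -0.090 and -0.14 and did not pass (adjusted p = 0.399, 0.325 and 0.0908). With depth as a covariate Ywhae (-0.080) and Ywhag (0.079) did not pass and Ywhaz turned to -0.11. With voom Ywhae (-0.045) and Ywhah (-0.054) did not pass and Ywhaz passed (0.056), and with array weights Ywhah did not pass (-0.057).

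In females, centring on the median brought Ywhae (-0.11), Ywhah (-0.15) and Ywhaz (-0.11) past the threshold, as did centring on the mean of brighter genes (-0.11, -0.15 and -0.11). Quantile normalization turned Ywhae to 0.016 and Ywhaz to 0.014. With depth as a covariate Ywhag did not pass (0.042) and Ywhaz did (-0.31). In males Ywhae did not pass with median centring (-0.074), mean centring (-0.073), voom (-0.076) or males alone (-0.11), and Ywhah passed after quantile normalization (-0.11). Ywhag passed with median centring (0.15), mean centring (0.15), voom (0.15), array weights (0.17) and without female 12 and male 3 (0.14), and Ywhaz passed under those settings at 0.13, 0.13, 0.13, 0.14 and 0.13.

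The Ywhaq interaction passed under every alternative run. That of Ywhaz passed with median centring (-0.245), mean centring (-0.25), voom (-0.15), array weights (-0.20), depth (-0.40) and without female 12 and male 3 (-0.17). That of Ywhae turned with median (-0.036) and mean centring (-0.037) and passed after quantile normalization (0.17), that of Ywhag turned with depth (-0.073), and that of Ywhah turned after quantile normalization (0.093) and with voom (0.0017).

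The sex difference of Ywhaq turned to 0.054 with median centring, 0.16 after quantile normalization, 0.085 with voom and 0.076 with mean centring, and did not pass with depth (-0.071). That of Ywhaz turned to 0.056, 0.074, 0.086 and 0.078 under the first 4. Ywhag did not pass with median centring (-0.050), voom (-0.020) or mean centring (-0.028) and turned after quantile normalization (0.075), and Ywhah did not pass after quantile normalization (-0.022), with voom (-0.045) or with mean centring (-0.053). Genes called for sex numbered 615 as deposited, 6.18% of them higher in females, against 315, 293, 326 and 318 under those settings, with 33.7%, 45.7%, 46.3% and 43.1% higher. With depth as a covariate 102 genes were called in females (415 without it) and 116 over both sexes (458 without it), and with array weights 256 interactions were called (166 without).

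With 1 mouse left out, the male difference ran from -0.12 to -0.094 for Ywhae (ending its call without 5xFAD male 1181 or 1269 or Plcg2+/- male 48), from 0.092 to 0.15 for Ywhag (passing without Plcg2+/- male 3 or 48) and from 0.072 to 0.13 for Ywhaz (passing without male 3), and the Ywhaz interaction from -0.18 to -0.12 (passing without male 3). The Ywhah interaction ran from -0.030 to 0.025. The log2 ratio Ywhae over Ywhah ran from -0.0073 to 0.021, below 0 without female 12 or male 3, and was -0.020 without both.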
